A study of Mus musculus with 8 samples.

Results

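N6-methyladenosine (m6A) peaks were listed in primary T cells of the mouse, either control or PTC, a name that the labels do not explain. The time given for all 8 samples, control included, was 24 h. The genes described here carried peaks in both conditions, yet no control peak shared a base of exon with a PTC peak of the same gene. They numbered 521 of 9836 genes in both lists (5.30%, 95% exact Clopper-Pearson interval 4.86 to 5.76%), of 12413 genes with a peak in either. Together they held 792 control and 675 PTC peaks, 1467 of 52954. Members were gene identifiers in both lists for which no exon block of a control peak shared at least 1 bp on the same strand with a block of a PTC peak. The genes were thus chosen by the measured overlap of peaks, so their number and the lack of overlap are a description and not a finding. The series held 8 samples in 4 groups of 2, immunoprecipitate and input for each condition, and gave 1 peak list per condition. Labels do not say whether the samples of a group came from separate animals or cultures, and depth per sample is unknown. With 1 list per condition, no difference between conditions below has a replicate check, no test was made, and intervals cover counting error only. T cell markers were present in the lists, with 15 of 16 listed in both conditions and 1 in PTC only, and 0 of 4 hepatocyte markers had a peak. Of the marker lists for other blood cells, 8 of 10 B cell genes, 6 of 10 myeloid genes and 1 of 4 natural killer genes were in both lists, and 0 of them were among the 521. A further 1 B cell gene and 3 myeloid genes had peaks in PTC only, and 2 natural killer genes in control only.

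m6A is a methyl mark set on adenosines of messenger RNA by a methyltransferase complex, removed by demethylases and bound by reader proteins that can change the stability, splicing or translation of the transcript. The mark is best known from sites near stop codons and in 3' UTRs, within a short consensus called DRACH. In T cells it is known to take part in homeostasis and in the response to cytokines. An antibody against m6A pulls down RNA fragments, and a peak is a stretch where the pulled-down RNA exceeds the input RNA. Such a peak is wider than the methylated base, and the authors give fragment lengths of 213 nt for control and 211 nt for PTC. Peaks that lie farther apart than a fragment point to different stretches of the transcript. Whether nearer peaks mark different stretches is not resolved.

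Sequences of 4 peaks in coding sequence show what the lists held in genes of this group. Psap encodes prosaposin, the precursor of lysosomal lipid-binding proteins, and had the strongest weaker side of all named members. Hspa8 encodes a constitutive chaperone, and Tigit an inhibitory receptor of T cells, shown with both of its peaks. Sequences are on the transcript strand, 5' to 3', from GENCODE M21 transcripts (GRCm38), and capitals mark DRACH (where D stands for any base but C, R for A or G and H for any base but G). Coordinates are those of the peak, and introns between its blocks are left out.
Psap control peak, chr10:60300235-60300616, + strand: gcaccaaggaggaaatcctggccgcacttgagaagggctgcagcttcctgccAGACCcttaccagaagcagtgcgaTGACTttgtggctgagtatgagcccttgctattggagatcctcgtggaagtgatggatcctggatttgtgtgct
Hspa8 PTC peak, chr9:40804957-40805106, + strand: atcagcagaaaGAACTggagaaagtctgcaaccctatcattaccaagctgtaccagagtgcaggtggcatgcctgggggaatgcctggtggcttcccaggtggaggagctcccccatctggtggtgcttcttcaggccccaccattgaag
Tigit PTC peak, chr16:43662073-43662250, - strand: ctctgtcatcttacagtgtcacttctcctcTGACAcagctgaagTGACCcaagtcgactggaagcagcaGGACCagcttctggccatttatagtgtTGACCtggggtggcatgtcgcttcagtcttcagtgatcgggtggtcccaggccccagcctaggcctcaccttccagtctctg
Tigit control peak, chr16:43649015-43649134, - strand: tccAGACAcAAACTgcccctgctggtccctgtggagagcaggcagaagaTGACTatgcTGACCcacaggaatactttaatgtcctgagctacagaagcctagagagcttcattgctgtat
The Psap stretch held 2 DRACH matches, the Hspa8 stretch 1, and the 2 Tigit stretches 4 each. None of these 4 peaks held GGACT, the form of DRACH that the methyltransferase is known to prefer.

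GGACT did occur in other members, and contexts of 29 nt around it are shown for some of the genes that the text returns to. The choice does not reflect the balance of the lists. Among named members, 16 of 75 control peaks with a sequence (21.3%) and 14 of 55 PTC peaks (25.5%) held GGACT. Capitals mark GGACT. Each is named by the gene, the list whose peak holds it and the region of the transcript.
Itpr1 control, chr6:108549843-108549871, + strand, 3' UTR: aatgaggcagagGGACTctgctcagccct
Itpr1 control, chr6:108549991-108550019, + strand, 3' UTR: tctcagaggtttGGACTttcgtattgtaa
Itpr1 control, chr6:108550072-108550100, + strand, 3' UTR: ccttttttggaaGGACTacagaaagtacc
Pola2 PTC, chr19:5940741-5940769, - strand, 3' UTR: gccacagggacaGGACTgtagggctgggc
Bad PTC, chr19:6951772-6951800, + strand, 3' UTR: ctctcctgttctGGACTgccctcgggtgc
Myo1c PTC, chr11:75673599-75673627, + strand, 3' UTR: accgggtgggagGGACTcttctgcctggg
Nudcd1 PTC, chr15:44428136-44428164, - strand, 5' UTR: cttcggctgcccGGACTtagaccctcagt
Mrpl30 PTC, chr1:37898148-37898176, + strand, CDS: aagctgccacagGGACTtcccacagaaga
Slc2a3 PTC, chr6:122729834-122729862, - strand, 3' UTR: caggatgaaccaGGACTgcttctgagtgc
Phc1 control, chr6:122319524-122319904, - strand, CDS: tcggggtcaagaGGACTctagccggggat
Phc1 PTC, chr6:122317795-122317823, - strand, 3' UTR: gggctgaggtcaGGACTgtaccttgggca
Dnmt1 control, chr9:20911908-20911936, - strand, CDS: agtgttcacagaGGACTgcaacgtgcttc
Ipo8 control, chr6:148782759-148782787, - strand, CDS: atgtgtataataGGACTgagtgtgctctt
Ehmt2 PTC, chr17:34903451-34905129, + strand, CDS: ggatgagcgggtGGACTctgacagcaagt
Itpr1 held 3 of these matches in 1 control peak of its 3' UTR, and Phc1 held 1 in a control peak and another in a PTC peak. Utrn, Wdr83 and Xpo7, not shown, also held GGACT in peaks of both lists. Matches were searched on the transcript strand only, and overlapping matches were counted. Over whole peaks, GGACT was found in 146 of 754 control peaks with a sequence (19.4%) and 152 of 651 PTC peaks (23.3%) of the group, and DRACH in 96.2% and 95.2%. In windows that reached 50 nt to each side of the peak midpoint, GGACT stood in 10.6% of control (8.57 to 13.0%) and 13.1% of PTC windows (10.6 to 15.9%). All peaks of the lists gave 11.5% and 12.9%. DRACH was found in 85.6% and 87.7% of members' windows, against 87.0% and 88.7% in all windows. The motif shares of these genes therefore lay at those of the lists. By gene, GGACT was found in peaks of both lists in 45 of 489 genes, in control peaks only in 82, in PTC peaks only in 94 and in neither in 268.

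Peaks of these genes were weak. The authors give each peak a false discovery rate (FDR), used here as −log10 FDR, and a fold enrichment. The median −log10 FDR was 3.04 for control and 3.06 for PTC peaks of the group, against 5.47 and 6.61 over the whole lists. A value of at least 5 was reached by 111 of the 792 control peaks (14.0%) and 108 of the 675 PTC peaks, against 53.4% and 59.8% of all peaks. Peaks were also narrow, with a median width of 180 nt in both lists against 268 and 270 nt. Fold enrichment went the other way, with medians of 4.66 and 4.52 against 3.65 and 3.66. Peaks of other shared genes that had no partner in the other list were similarly weak, at medians of 3.42 and 3.14, while peaks with a partner stood at 10.2 and 9.44.

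For each gene the weaker side is the lower of its best control and best PTC −log10 FDR. Its median was 2.71 in the 521 genes and 13.3 in the other shared genes. Among genes with a weaker side below 2, 66 of 137 had no overlapping pair (48.2%, 39.6 to 56.9%). The share was 28.8% from 2 to 3, 14.5% from 3 to 4, 6.78% from 4 to 5, 2.51% from 5 to 7 and 0.687% from 7 to 10. From 10 to 20 it was 2 of 1778 genes (0.112%), namely Psap and Gars, and from 20 it was 0 of 3647, which allows up to 0.101%. Genes with 1 peak in each list followed the same course, from 48.8% below 2 to 0.531% between 10 and 20. Strength and overlap thus moved together across genes, and whether strength accounts for the missing overlap was not tested.

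**Figure D1:**
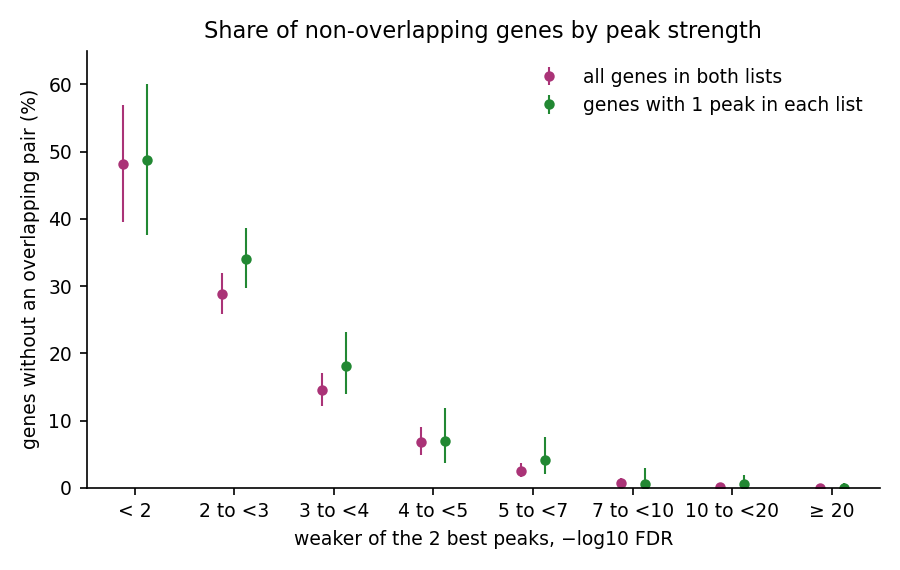
Share of genes in both lists that had no overlapping pair (y axis, %), by the weaker of the best control and best PTC peak (x axis, −log10 FDR). Points are shares and lines their exact 95% intervals, in purple for all genes in both lists and in green for genes with 1 peak in each. The purple share fell from 48.2% below 2 to 0.112% between 10 and 20.

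**Figure D2:**
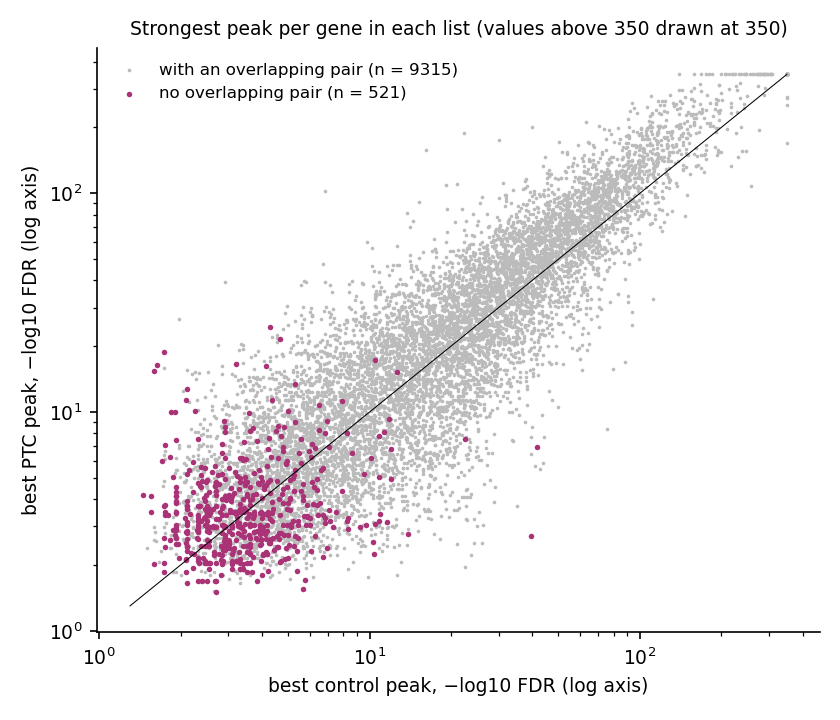
Best control peak (x axis) against best PTC peak (y axis) of each gene in both lists, in −log10 FDR on log axes, with the line of equal values. Purple points are the 521 genes without an overlapping pair and grey points the 9315 others, and values above the axis end are drawn at it. Most purple points sit in the lower left corner, with a median weaker side of 2.71.

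Few genes had strong peaks on both sides. Both best peaks reached 5 in 34 genes (6.53%), either did in 165 and either reached 10 in 36. The control peak was the stronger in 255 genes and the PTC peak in 265. Of the 521 genes 269 had 1 peak in each list (51.6%). They were 11.5% of the 2342 genes with 1 peak in each list. A further 148 genes had more control than PTC peaks and 80 had more PTC peaks. Where only peaks of at least 5 were kept in both lists, 194 of 7334 genes lacked an overlapping pair (2.65%), and 34 of those 194 were among the 521. With a fold enrichment of at least 4 it was 745 of 5598 (13.3%), of which 235 were among them. Which genes belong to the group therefore depended on the threshold of the lists. Protein-coding genes made up 441 of the 521 (84.6%), against 85.8% of the other shared genes, and 24 were pseudogenes. Median exonic length was 4209 nt against 4357 nt.

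Psap and Gars had the strongest peaks on both sides. Psap had a control peak in coding sequence (chromosome 10, 60300235 to 60300616, −log10 FDR 12.6, fold enrichment 1.55). Its PTC peak lay 5' of it, spread over 3 exon blocks from 60277716 to 60291770, with 15.2 and 2.21. The exonic gap between them, counted along the joined exons of the gene, was 1221 nt. Gars, the glycyl-tRNA synthetase, showed the opposite order. Its control peak lay in coding sequence (chromosome 6, 55050289 to 55050468, 10.5), and its PTC peak lay across 2098 nt of exon at 55079290 to 55079500, with a midpoint 52 nt from a stop codon (17.3). Both Psap peaks and both Gars peaks had fold enrichments of at most 2.21, below the medians of the group.

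Ipo8 encodes a nuclear import receptor and had 2 peaks in each list. Its strongest control peak stood in the 3' UTR (11.8) and its strongest PTC peak in coding sequence (9.3), and the peaks of the 2 lists alternated along the transcript. Rps12, a protein of the small ribosomal subunit, had a control peak of 11.3 and a PTC peak of 8.13, with a gap of 327 nt. Rps12 and Hspa8 have close copies elsewhere in the genome that can draw on the same reads, which leaves their values uncertain. Cct4, a subunit of the cytosolic chaperonin, had 3 control peaks, the strongest at 7.89 in a noncoding exon. Its PTC peak of 11.2 began 88 nt after the last of them, with a midpoint 35 nt from the stop codon. Wdr83, a WD repeat protein, alternated 3 PTC and 2 control peaks, the best being 7.77 for PTC in coding sequence near the stop codon and 10.8 for control.

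Psma7 encodes an alpha subunit of the proteasome. Its single control peak spread over 3 exon blocks of chromosome 2 (180038169 to 180039390) and reached 22.5, and 3 PTC peaks flanked it on both sides with values of 5.27, 5.39 and 7.51. Ppt1, a lysosomal thioesterase, had adjoining peaks in its 3' UTR, 6.98 in control and 9.08 in PTC, 29 nt apart. Myo1c, an unconventional myosin, had 2 control peaks in coding sequence (6.87 and 3.24) and a PTC peak in the 3' UTR (8). Nudcd1 had 2 peaks in each list, with best values of 8.24 in control and 8 in PTC. Its PTC peak in the 5' UTR lay far from the control peaks, while its peaks in the 3' UTR were 179 nt apart. In Hspa8 the PTC peak of 10.8 had its midpoint 84 nt from a stop codon. The stronger Hspa8 control peak, 6.51, ended 358 nt before it. Atxn10 had a control peak in coding sequence (6.48) and a PTC peak with a midpoint 8 nt from a stop codon (8.29). In 10 of these 12 genes the PTC peak of the nearest pair lay 3' of the control peak, and Psap and Rps12 were the exceptions.

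**Figure D3:**
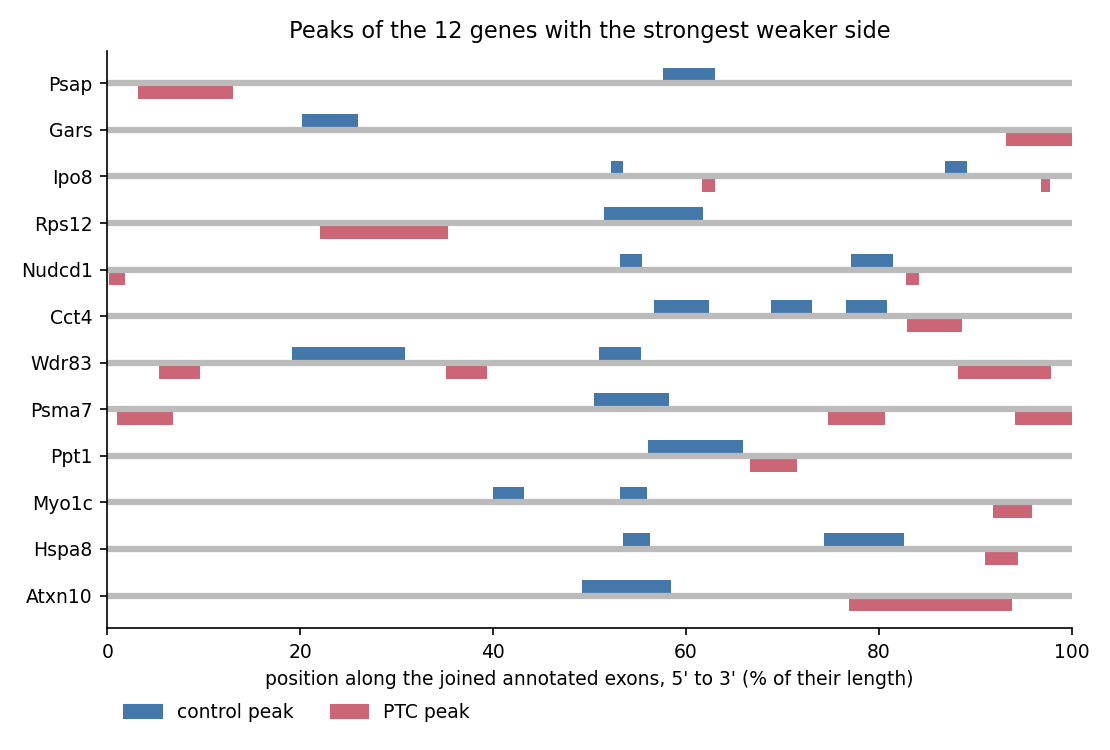
Peaks of the 12 genes with the highest weaker side along their joined exons (x axis, % of exonic length from 5' to 3'), with control peaks in blue above the line and PTC peaks in red below it. No blue and red boxes of a gene overlap, and in 10 of the 12 genes the nearest PTC box lies to the right of the control box.

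The distance between the nearest control and PTC peaks could be measured along exons in 519 genes. It ran from 28 to 16818 nt, with a median of 419 nt and quartiles of 177 and 1106.5 nt. At most 100 nt separated the peaks in 86 genes (16.6%), and over 1000 nt in 139 (26.8%). Those 86 gaps and the lower quartile were shorter than the fragments of 213 and 211 nt, so such peaks may not be resolved from each other. In 343 of the 521 genes (65.8%) the nearest peaks lay in the same exon, once exons of all annotated transcripts of a gene were merged. A merged exon can include bases that are intron in some transcripts, as in Psma7, whose nearest peaks each spread over 3 blocks. Gaps came in steps. Of the 86 gaps up to 100 nt, 29 were 28 or 29 nt, 25 were 58 or 59 nt and 28 were 88 or 89 nt. Peak widths fell on the same grid, since 93.8% of control and 94.1% of PTC peaks of the group had a width within 1 nt of a multiple of 30. That share was 81.4% and 79.6% in all peaks. The lists therefore placed peak edges on a grid of 30 nt, and a gap of 28 nt was the smallest of the group. On the other side of the rule, 41 shared genes had a largest overlap of at most 30 bp, down to 1 bp in genes such as Dpp4 and Acvr1. Members with a gap of at most 30 nt numbered 29.

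**Figure D4:**
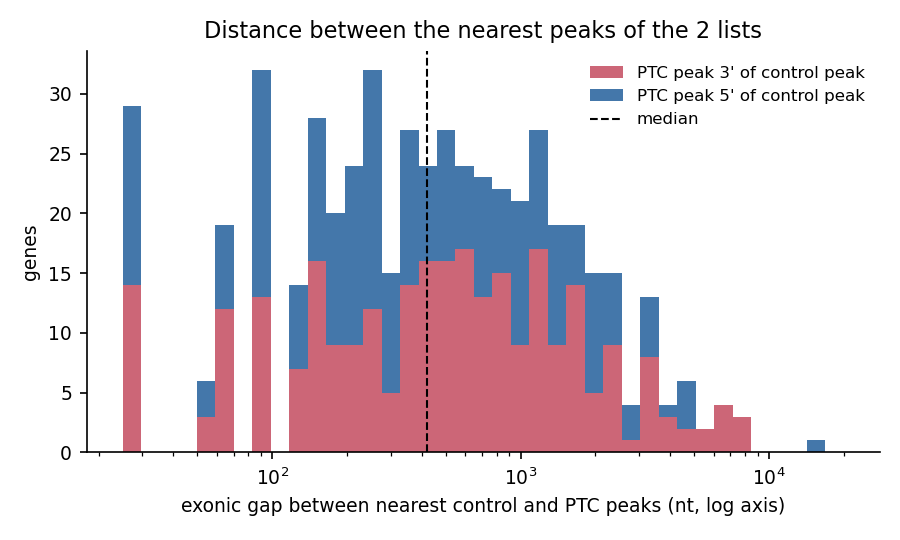
Exonic distance between the nearest control and PTC peaks (x axis, nt, log axis) in the 519 genes where it could be measured (y axis, genes), stacked by order along the transcript: PTC peak 3' of the control peak in red, 5' of it in blue. The dashed line marks the median of 419 nt, and the separate bars at the left are the steps near 28, 58 and 88 nt.

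Of the 124 protein-coding members with a gap over 1000 nt, 46 had both nearest peaks in the same region and the others had them in different regions. Itpr1, a calcium channel of the endoplasmic reticulum, had the longest at 16818 nt. Its PTC peak lay in the 5' UTR (chromosome 6, 108213156 to 108213336, −log10 FDR 5.06), and both control peaks lay in the 3' UTR (10.8 and 4.4). Pola2, a subunit of DNA polymerase alpha, ran the other way, with a control peak in the 5' UTR (4.8), a PTC peak in the 3' UTR (3.06) and 7817 nt between them. In the coronin gene Coro7 the control peak was in the 5' UTR (3.28) and the PTC peak in the 3' UTR (4.45), 6194 nt apart. Sugt1, a co-chaperone, had its PTC peak in coding sequence (3.5) and its control peak in the 3' UTR (3.23). All peaks of Pola2, Coro7 and Sugt1 were below 5.

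Of the 86 gaps up to 100 nt, 83 lay within a single merged exon. Hnrnph3, an RNA-binding protein of nuclear RNA, was 1 of 5 genes at the lowest gap of 28 nt, and of the named genes the only one. Its gap lay between a PTC peak of 4.53 and a control peak of 3.11 in its 3' UTR. Armcx2 had a control peak of 8.29 and a PTC peak of 3.27 in coding sequence, 29 nt apart. Cd99l2 and the endocytosis gene Fcho2 had pairs in the 3' UTR at the same distance. The genes with most peaks were Hook3, a microtubule adaptor, with 6 control and 2 PTC peaks, Utrn, a relative of dystrophin, with 4 and 4, and the nuclear export receptor Xpo7 with 5 and 3. Hook3 peaks stayed at or below 4.14 and Utrn peaks at or below 5.27, while the best Xpo7 control peak had 10.4 and its best PTC peak 2.24. Ccdc137 held 6 control peaks between 2.85 and 3.82 and 1 PTC peak of 2.63, which began 29 nt beyond a control peak. Dnmt1, the maintenance DNA methyltransferase, held 6 control peaks in coding sequence, up to 10.9, and 1 PTC peak of 3.41 in coding sequence between them.

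The order of the nearest peaks was close to even. In the nearest pair the PTC peak was 3' of the control peak in 279 of 521 genes (53.6%, 49.2 to 57.9%), an interval that includes an even split. In genes with 1 peak in each list it was 153 of 269 (56.9%, 50.7 to 62.9%), an interval that lies just above an even split. The median PTC peak midpoint stood at 61.5% of exonic length and the median control midpoint at 55.8%, against 58.4% and 56.5% in the whole lists. In protein-coding genes the midpoint lay in the 3' UTR for 310 of 687 control peaks (45.1%, 41.4 to 48.9%) and 290 of 578 PTC peaks (50.2%, 46.0 to 54.3%). All peaks of the lists gave 45.3% and 48.9%, within these intervals. Noncoding exons, annotated in transcripts but outside the coding ones, held 10.3% of control (8.16 to 12.9%) and 4.67% of PTC peaks (3.10 to 6.72%). Over the whole lists these shares were 6.80% and 4.45%, and for peaks without a partner in other shared genes 12.8% and 11.4%.

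Near stop codons the PTC share was the higher. Midpoints within 200 nt of a stop codon numbered 102 of 687 in the control list (14.8%, 12.3 to 17.7%) and 146 of 578 in the PTC list (25.3%, 21.8 to 29.01%). The whole lists gave 16.8% and 22.1%. In members with 1 peak in each list the shares were 18.4% (40 of 217) and 36.4% (79 of 217). Peaks without a partner in the other shared genes also lay near a stop codon more often in the PTC list, at 11.7% against 5.92% of control peaks. The order of the lists was thus not particular to the 521 genes. Other genes with 1 peak in each list, whose peaks overlap by definition, gave nearly equal shares of 44.0% for control and 44.9% for PTC. With a weaker side below 5 those genes gave 41.3% and 40.9%. Members with 1 peak in each list and a weaker side below 5 gave 18.4% for control (13.4 to 24.4%) and 35.9% for PTC (29.4 to 42.9%). Their control share thus lay below 41.3% and 40.9%, while the interval of their PTC share includes both values. By gene, the PTC list alone had a peak near a stop codon in 132 of 441 coding members (29.9%) and the control list alone in 88 (19.96%). Both had one in 13 and neither in 208. Of the 217 coding members with 1 peak in each list, 5 had both peaks near a stop codon. The rule admits only peaks that do not overlap, and how far it lowers this joint count was not tested. Bad, Bub1b, Gars and Atxn10 were among genes with a PTC peak near a stop codon and a control peak away from it, and Tigit and Ndufv1 had the reverse.

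**Figure D5:**
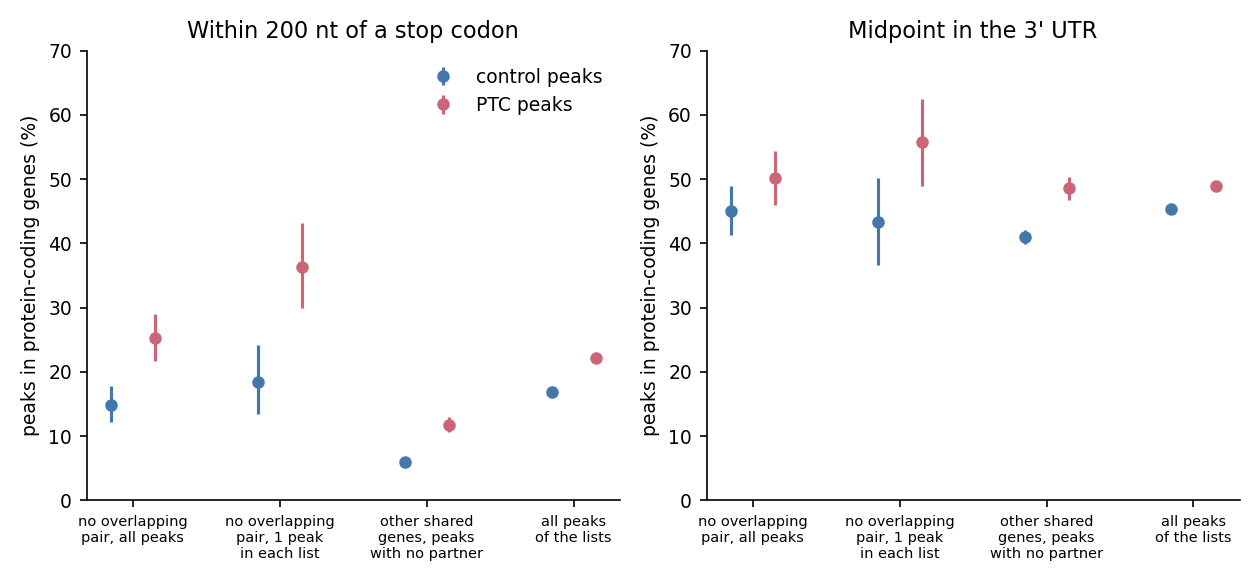
Share of peaks in protein-coding genes (y axes, %) with a midpoint within 200 nt of a stop codon (left) or in the 3' UTR (right), for control (blue) and PTC (red) peaks of the 521 genes, of those with 1 peak in each list, of other shared genes where the peak had no partner, and of the whole lists. Points are shares and lines exact 95% intervals, some hidden by the point. Near stop codons the lists stand at 18.4% and 36.4% in the genes with 1 peak in each and at 5.92% and 11.7% for peaks without a partner in other shared genes.

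The nearest peaks lay in the same region in 270 of 441 coding members (61.2%), most often both in the 3' UTR (36.1%) or both in coding sequence (22.9%). A control peak in coding sequence with a PTC peak in the 3' UTR was found in 62 genes, and the reverse in 36. A control peak in the 5' UTR with a PTC peak in the 3' UTR occurred in 11 genes, with a median gap of 4408 nt, and the reverse in 5. Control in the 5' UTR with PTC in coding sequence occurred in 8 genes and the reverse in 9, close to even.

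The gene lists named in the processing section held few of these genes. In 9 of the 18 lists 0 genes were members, among them 0 of 46 shared genes of the T cell receptor and costimulation list, 0 of 35 of cytokine signalling, 0 of 18 naive and memory genes and 0 of 10 cytotoxic effectors. Over all lists 19 of 420 shared genes were members (4.52%), against 5.30% of all shared genes. The mitochondrial list held 6 of 81 and the cell cycle list 3 of 24, and the others held at most 2 each. The lists have no test here, and these counts single out none of them.

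Among genes of the mitochondrial list, 5 members encode proteins of the mitochondrial ribosome. The limit on named genes per list left out Mrpl1 and Mrpl52, whose peaks are not described here. PTC peaks of Mrpl55, Mrpl30 and Mrpl4 lay within 94, 41 and 98 nt of a stop codon, with −log10 FDR of 4.36, 6.49 and 3.37. Control peaks of Mrpl55 (5.6) and Mrpl30 (2.85) lay in the 5' UTR and that of Mrpl4 (2.32) in a noncoding exon. Ndufv1, a subunit of complex I, had the reverse order, with its control peak (3.94) 168 nt from a stop codon and its PTC peak (2.97) upstream in coding sequence. Of the cell cycle genes, Bub1b, a kinase of the mitotic checkpoint, had a control peak in coding sequence (4.02) and a PTC peak in the 3' UTR (2.86), 3257 nt apart. Aurkb, the mitotic kinase, and Cdk7, a kinase that activates other cyclin-dependent kinases, had gaps of 88 and 89 nt, with all peaks between 2.54 and 3.25.

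In the chromatin and Polycomb lists, Ehmt2, a histone methyltransferase, had a PTC peak (4.2) 1469 nt upstream of the nearer of 2 control peaks (3.48 and 3.79), all in coding sequence. Phc1, a subunit of Polycomb repressive complex 1, had 3 control peaks from 3.13 to 4.54 and a PTC peak of 2.71 that began 118 nt after the last. Of the remaining lists, Tigit was the only exhaustion gene, with a PTC peak of 3 in coding sequence 295 nt of exon upstream of its control peak of 3.25. Irf7, a transcription factor of the interferon response, had 2 control peaks that lay between its 2 PTC peaks, with best values of 4.31 and 6.25. Slc2a3, a glucose transporter, had a PTC peak of 4.8 in its 3' UTR near the stop codon and 3 control peaks, up to 6.11. Bad, a pro-apoptotic member of the Bcl2 family, had a control peak in the 5' UTR (3.94, fold enrichment 17.9) and a PTC peak 46 nt from a stop codon (3.44, 3.76), 1986 nt apart.

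Some genes paired a strong peak in 1 list with a weak one in the other, and were chosen after their values were seen. Actn1, the actin cross-linker alpha-actinin, had a control peak of 39.5 in the 5' UTR with a fold enrichment of 103, a second control peak of 2.1 in coding sequence and a PTC peak of 2.72 in coding sequence. Cnn2, calponin, had a PTC peak of 24.4 whose midpoint lay 109 nt from a stop codon and a control peak of 4.3 in the 3' UTR, 328 nt away. Trap1, a mitochondrial chaperone, had a PTC peak of 21.5 with a midpoint 20 nt from a stop codon and control peaks of 4.66 and 4.52 upstream. Msr1, a scavenger receptor of macrophages, had PTC peaks of 18.8 and 8.78 and a control peak of 1.73. The PTC peak of Trap1 shared 54 bp with a control peak listed on the opposite strand for Dnase1, and whether the strand of the reads was kept is not given in the sources used here.

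The last named members lie on chromosome 18. The reader and helicase gene Ythdc2 had a control peak in coding sequence (3.56) and a PTC peak in the 3' UTR (3.3), separated by 6656 nt. Pmaip1, a pro-apoptotic target of p53, had a control peak of 5.46 and PTC peaks of 6.51, 1.69 and 3.09, all in its 3' UTR, with the control peak nearest to the stop codon. Mib1, a ligase of Notch ligands, had 2 control peaks (6.2 and 3.5) and a PTC peak of 3.79 that began 29 nt after the second.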

How the data were processed

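m6A immunoprecipitation and input sequencing of mouse T cells were used in the form of 2 deposited peak lists, 1 per condition. Per the submitters' processing notes, tools included BWA 0.7.12 and MACS2 2.1.0 and the build was GRCm39. How the peaks were called, and whether samples were pooled, is not given in the sources used here. The deposited coordinates match GENCODE M21 on GRCm38 (99.8% of control and 99.8% of PTC peaks lie inside their own gene) and are read as such. Each deposited peak carries a p-value, log10 p and log10 FDR columns (a score here, since some are minus infinity) and a fold enrichment (a linear ratio), all the authors' own and used only within a list. The authors' deposited summary gives fragment lengths, peak counts and the percent of reads in peaks, which enter no computed result. Its counts of 19420 control and 15855 PTC peaks differ from the 29586 and 23368 peaks of the lists used here. Why they differ is not given in the sources used here.

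Exon blocks were compared per gene and strand. Gaps were counted along joined annotated exons, merged over all transcripts of the gene, so they can include bases that are intron in some transcripts. A midpoint stood for a peak. Regions were taken from protein-coding transcripts in the order coding sequence, 3' UTR, 5' UTR, noncoding exon. Scripts ran in Python 3.11.15 with pandas 2.3.3 and scipy 1.17.1 and were tested on simulated data. Named genes are the 12 with the highest weaker side, the 5 largest and 5 smallest gaps with both sides at 3 or more, the 5 with most peaks and up to 4 per gene list, without unnamed models, pseudogenes and mitochondrial genes. The 18 gene lists cover T cell signalling, identity and effector genes, cytokines, interferon, Polycomb, chromatin, m6A, cell cycle, apoptosis, nutrients, mitochondria and markers of other cells. Members, lists and rules were chosen with earlier results of these data known, including the overall position of peaks without a partner. Alternatives changed the overlap, the thresholds, the list length, the stop codon distance and the motif window.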

Additional observations from a re-analysis of the deposited data

How the results depend on the processing

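Of 83 recomputed values of 11 results, 61 lay inside the interval of the value (for counts, within 1.5 times) and 22 moved. Among the 61 are those from whole spans in place of exon blocks, which equalled the main value for each of the 11 results. Such equality had to follow, since 0 of 521 members had overlapping spans. For the median gap of 419 nt the interval was its quartiles over genes, 177 to 1106.5 nt, so large shifts counted as unmoved. That median was 239 nt with 50% of the shorter peak required and 777.5 nt at a −log10 FDR of at least 5. With 1 peak in each list it was 628 nt. The count of 521 genes became 194 when both lists were limited to a −log10 FDR of at least 5, and 269 with 1 peak in each list. The share without an overlapping pair was 6.78% with 50% of the shorter peak required, 4.45% where peaks within 100 bp counted as overlapping, 2.65% at a −log10 FDR of at least 5, 13.3% at a fold enrichment of at least 4, 4.54% at equal list length and 11.5% with 1 peak in each list. Gaps of at most 100 nt made up 34.9%, 0.688% (by construction), 8.76%, 11.8% and 10.5% under these settings without equal list length. With 1 peak in each list 55.8% of PTC peaks lay in the 3' UTR. Near a stop codon lay 19.3% of control and 29.6% of PTC peaks at a −log10 FDR of at least 5, 18.4% and 36.4% with 1 peak in each list, and 9.02% and 15.6% within 100 nt. GGACT was in 20.5% of control and 24.1% of PTC windows reaching 100 nt to each side. At equal list length, counted as unmoved, the shares near a stop codon were closer, at 15.9% of control (12.8 to 19.5%) and 22.4% of PTC peaks (18.8 to 26.4%). A higher PTC share near stop codons was found in each setting given here, and the cause of the other moves was not tested. No paired analysis was possible because the lists hold no values per sample, and for the same reason no replicate could be left out.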

Other observations

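A peak without a partner in its own gene can still have one under another gene identifier. On the same strand this held for 2 of the 521 genes. The PTC peak of Timm10b, a factor of mitochondrial protein import, shared 22 bp with a control peak listed for Gm45799, and the PTC peak of Gm20687 shared 8 bp with one of Zfhx2os. On the opposite strand it held for 13 genes. The control peak of Gm20721 (−log10 FDR 41.5, the strongest of the group) shared 121 bp with a PTC peak of Gnas (5.49), and the PTC peak of Acot8 shared 147 bp with a control peak of Snx21.

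Among symbol families looked at after their values were seen, 3 of 16 shared heat shock genes (Hsp90aa1, Hspa1l and Hspa8), 3 of 30 cytosolic ribosomal protein genes (Rpl5, Rps12 and Rps4x) and 5 of 40 WD repeat genes had no overlapping pair. For solute carriers (Slc) it was 9 of 145, for proteasome genes (Psm) 2 of 35, for Tmem genes 4 of 93, for tRNA synthetases 1 of 26, for RNA polymerase subunits (Polr) 1 of 24 and for zinc finger genes named Zfp 8 of 279. Over all shared genes the share was 5.30%, and the small families allow no reading of a difference from it. By gene type, 13 of 82 shared genes marked as to be experimentally checked in the annotation (15.9%, 8.72 to 25.6%) and 11 of 133 long intergenic noncoding RNAs (8.27%, 4.20 to 14.3%) had none. The share was 5.23% for protein-coding genes, 5.71% for all other types together, 5.50% for antisense genes and 3.34% for pseudogenes. These counts have no test.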
